A study of Mus musculus with 6 samples.

Results

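The genes described here are 40 cell cycle and DNA replication genes, chosen by symbol and not by their values, out of 24972 genes in each deposited table. All 40 were found in both tables. They were split into 3 G1 genes, 17 S phase genes and 20 mitosis genes by a step of the cycle in which each is known to act. A gene can act in more than 1 step, and Ccna2 was counted with the mitosis genes. RNA was measured in maxillary first molars, the first upper cheek teeth, of newborn mice at postnatal day 1. The Ascl5 mutation was absent (Ascl5WT/WT), on 1 allele (Ascl5Mut/WT) or on both (Ascl5Mut/Mut), and each genotype had 2 libraries, 6 in all. The protein made by Ascl5 belongs to the basic helix-loop-helix transcription factors. No source used here describes the mutated sequence or the number of animals or teeth behind a sample, so p-values measure only the spread between these samples. The design asks how each mutant genotype changes transcript levels relative to Ascl5WT/WT.

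A dividing cell commits to a new round in G1, when D-type cyclins activate Cdk4. Cyclin E with Cdk2 then starts S phase, in which the Mcm2 to Mcm7 helicase opens the DNA and Pcna holds the polymerases on it. Cyclins A and B with Cdk1 drive entry into mitosis, where kinases such as Plk1, Aurka and Aurkb and the motor Kif11 build the spindle. Genes of S phase are known targets of E2F factors, and genes of mitosis of the DREAM complex and FoxM1, which act through a short element called CHR. CCAAT boxes, common in promoters of mitosis genes, are bound by the factor NF-Y. In a growing molar, dividing cells lie in the inner enamel epithelium, the cervical loops and the dental papilla. A bulk sample cannot tell fewer dividing cells from less RNA per cell.

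The files hold normalized counts, and the 2 tables, each with both Ascl5WT/WT libraries and 1 mutant genotype, were normalized separately. The library totals lay between 12304814 and 13118122 normalized counts. Low values lay in steps of 108.7 to 139.8 normalized counts, which appear to be worth 1 read. Dividing by that step gives an estimated 90476 to 117399 counted reads per library, and a floor of 3 such reads stands at 326 to 419 normalized counts. The Ascl5 gene had a value of 0 in every one of the 6 libraries, and so does not check the labels. Of 12 dental epithelium markers, 5 were above 0 in all 6 libraries (Krt14, Krt5, Krt17, Cdh1 and Trp63). Krt15 was at 0 in both Ascl5WT/WT libraries, as were Amelx and Ambn, which encode enamel matrix proteins. Of 10 dental mesenchyme markers, 4 were above 0 in all 6 (Vim, Col1a1, Col1a2 and Col3a1), while Pax9 and Lhx8 were at 0 in both Ascl5WT/WT libraries.

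In both mutant genotypes the 40 genes together had lower summed values than in Ascl5WT/WT, at 0.629 (Ascl5Mut/Mut) and 0.657 (Ascl5Mut/WT) of the wild-type mean. The S phase genes stood at 0.483 and 0.542 of it and the mitosis genes at 0.752 and 0.735. Without Wdr76 the S phase genes stood at 0.716 and 0.790, so much of their difference rested on that gene. The mitosis sum kept Ccna2, its gene with the highest mean in both tables, so these ratios do not compare the S phase and mitosis genes alike. With Ccna2 left out, the mitosis ratio was lower in both tables. It was then close to the S phase ratio without Wdr76 in Ascl5Mut/Mut, and below it in Ascl5Mut/WT. Wdr76 had the widest difference among the members that could be tested. It encodes a nuclear WD40-repeat protein linked to the DNA damage response and is a usual marker of S phase cells. Wdr76 stood between 6921 and 8000 normalized counts in wild-type molars and between 797 and 1638 in the 4 mutant libraries. The widely used proliferation gene Mki67 and the cyclins Ccna2 and Ccne2 had values that overlapped between genotypes.

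Promoter sequences are shown for Wdr76, Mcm6 and Top2a, because in each comparison both mutant libraries lay below both Ascl5WT/WT libraries for these 3 genes. Cenpf and Ube2c also met this and are not shown. The 3 genes shown are the only tested member with a call, a helicase subunit of S phase and a topoisomerase of mitosis. Each sequence is the 250 bases before a transcription start, 5′ to 3′ on the gene's strand, from RefSeq (GRCm38.p6). Capitals mark matches on either strand to CCAAT, to the CHR element TTTGAA, or to the E2F elements TTTCCCGC and TTTGGCGC. The Wdr76 window lies at chr2:121506473-121506722 on the plus strand, Mcm6 at chr1:128359706-128359955 on the minus strand and Top2a at chr11:99024190-99024439 on the minus strand.
Wdr76: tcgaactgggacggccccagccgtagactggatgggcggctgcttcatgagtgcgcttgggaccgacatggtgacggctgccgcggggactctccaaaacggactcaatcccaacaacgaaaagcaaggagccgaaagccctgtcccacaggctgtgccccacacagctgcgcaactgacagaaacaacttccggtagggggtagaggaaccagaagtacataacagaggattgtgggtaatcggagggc
Mcm6: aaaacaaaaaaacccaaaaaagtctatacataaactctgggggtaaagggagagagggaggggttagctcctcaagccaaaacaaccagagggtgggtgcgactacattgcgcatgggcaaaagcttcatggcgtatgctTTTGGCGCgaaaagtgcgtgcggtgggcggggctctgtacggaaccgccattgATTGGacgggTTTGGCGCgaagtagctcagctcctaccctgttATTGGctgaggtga
Top2a: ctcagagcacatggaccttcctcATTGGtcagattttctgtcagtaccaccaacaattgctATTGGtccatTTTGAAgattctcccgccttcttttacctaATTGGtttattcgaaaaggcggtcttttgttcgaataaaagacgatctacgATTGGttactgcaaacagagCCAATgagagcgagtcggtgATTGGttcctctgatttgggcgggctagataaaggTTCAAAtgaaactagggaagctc

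The Mcm6 window held 2 E2F elements and 2 CCAAT boxes, and the Top2a window held 6 CCAAT boxes and 2 CHR elements. None of these letters occurred in the Wdr76 window shown. A second Wdr76 start, with a window at chr2:121508243-121508492, held 1 CHR element. RefSeq windows were found for 31 of the 40 members. A CCAAT box was present for 15 of 16 mitosis genes (93.8%) and 9 of 14 S phase genes (64.3%), against 37.5% of 27018 genes with a window of the same length. CHR elements were present for 7 of the 16 mitosis genes (43.8%) and 2 of the 14 S phase genes (14.3%), against 18.3% of all genes. E2F elements were present for 5 S phase genes (35.7%) and for 0 of the 16 mitosis genes, against 1.51% of all genes. These matches are letters in a window and do not show that a factor binds there.

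The number of members above the detection floor was small. Of the 40, 4 were listed at 0 in all 6 libraries, against 44.2% of all genes named in both tables. These were Gmnn, a licensing inhibitor, Mcm5, Rrm2, a ribonucleotide reductase subunit, and Foxm1. At or under the floor in all 6 libraries were 10 members, with Cdc6, Mcm2, Tyms, Cdc20, Birc5 and Ube2c beside those 4. Above 0 in all 6 were 13 members, and 6 were above the floor in all 6 (15.0%, against 7.18% of all genes). These 6 were Ccnd1, Ccne2, Rrm1, Wdr76, Mki67 and Ccna2, and in each library they held between 60.4% and 82.6% of the members' summed value. Their exons were long, with a median of 5507 bases in the GENCODE M21 annotation (GRCm38), against 3698 bases for the 10 members at or under the floor. All genes differed likewise in the Ascl5Mut/Mut table, with medians of 5125 bases at a mean of at least 1000 and 3018.5 bases under it.

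**Figure D1:**
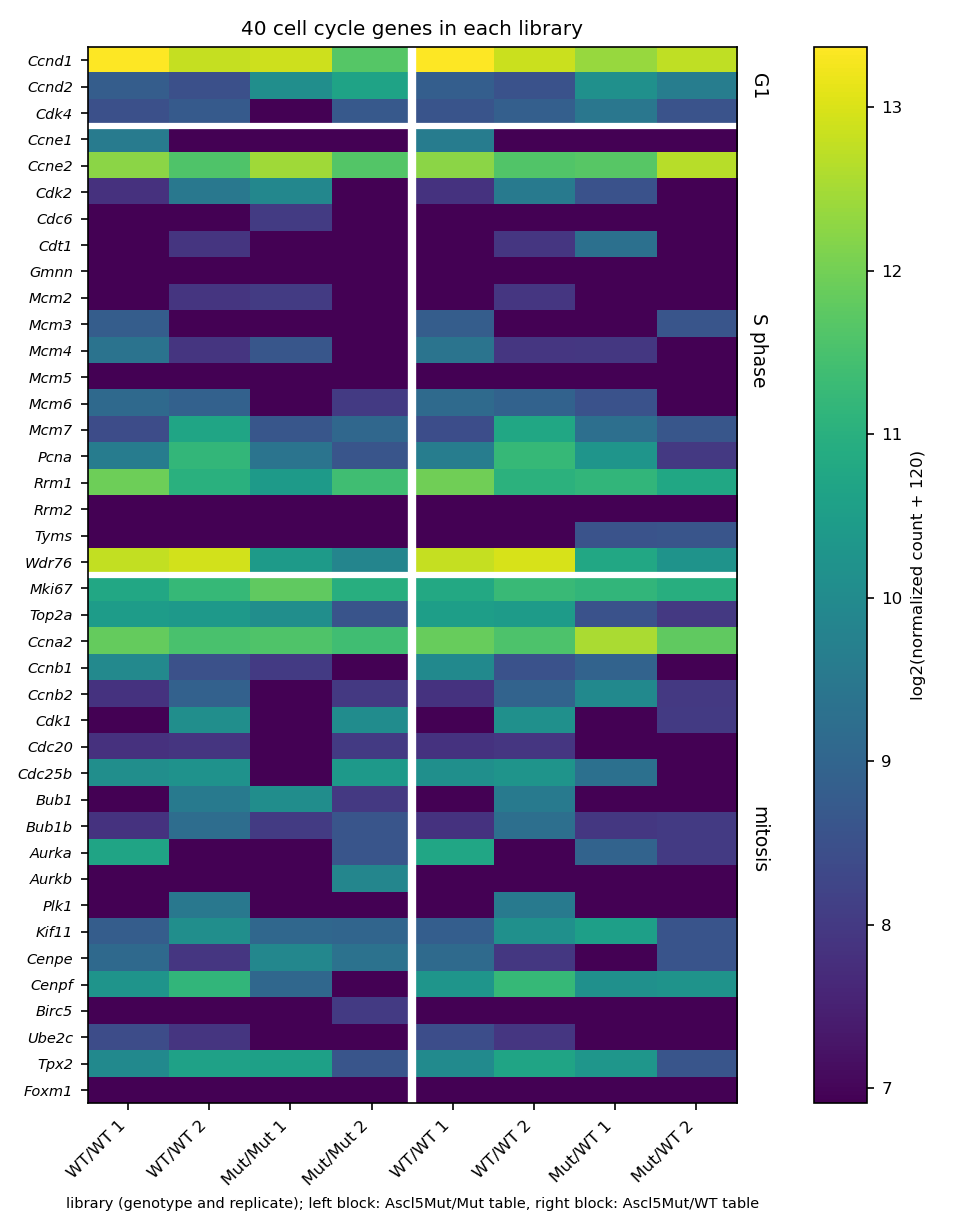
Each row is 1 of the 40 genes and each column 1 library, with the Ascl5Mut/Mut table on the left and the Ascl5Mut/WT table on the right. Colour is log2(normalized count + 120), and the darkest cells are genes listed at 0. The Wdr76 row is bright in both Ascl5WT/WT libraries of each table, at 6921 to 8000 normalized counts, and dim in all 4 mutant libraries.

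Exons of 11 of the 40 members overlap exons of a gene on the opposite strand (27.5%, against 24.2% of all matched genes), and no source used here gives the strand setting of the counting. Of the 6 members above the floor in all libraries, 3 are among them, near the share of 51.2% among the tested genes of the Ascl5Mut/Mut table that were matched to the annotation. Ccnd1 overlaps LTO1 by 1100 bases, Ccne2 overlaps Ints8 by 609 bases and Ccna2 overlaps Exosc9 by 510 bases. Values of these 3 genes may therefore hold reads of the gene opposite. Wdr76 (chromosome 2, 121506723 to 121544860, plus strand), Rrm1 (chromosome 7, 102441695 to 102469771, plus strand) and Mki67 (chromosome 7, 135689784 to 135716361, minus strand) have no such overlap in this annotation. Per kilobase of exon, the means of the 2 Ascl5WT/WT libraries were 1838 ± 485 for Ccnd1, 1159 ± 86.1 for Wdr76 and 1102 ± 369 for Ccne2 (SD, n = 2 each). Ccna2 followed at 778 ± 136 and Mki67 was at 195 ± 45 (SD, n = 2 each). The per-kilobase levels of Wdr76 and Ccne2 overlapped, as did those of Ccne2 and Ccna2.

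Among the G1 genes, Ccnd1 (cyclin D1) had normalized counts of 10270 and 7039 in Ascl5WT/WT and 7416 and 3140 in Ascl5Mut/Mut. The ranges overlapped, and the log2 difference of -0.80 (95% interval -1.93 to 0.34) did not pass limma (adjusted p = 0.579). In the Ascl5Mut/WT table Ccnd1 had 10445 and 7322 in Ascl5WT/WT and 5188 and 6707 in Ascl5Mut/WT. There both mutant libraries lay below both wild-type libraries, without a call (log2 difference -0.56, limma adjusted p = 0.695). Ccnd2 (cyclin D2) went the other way. Its values were 328 and 241 in wild type against 981 and 1485 in Ascl5Mut/Mut, and 334 and 251 against 1012 and 676 in Ascl5Mut/WT. Both mutant genotypes were above wild type in every library, but the wild-type values were at about 2 and 3 estimated reads, and the gene was too low to be tested. Its exons overlap genes on the opposite strand by 740 bases. Cdk4, the kinase partner of D-type cyclins, lay between 0 and 594 in all libraries.

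Among the S phase genes, Wdr76 had 6921 and 7689 normalized counts in Ascl5WT/WT, about 63.7 and 64.1 estimated reads. It had 1257 and 797 in Ascl5Mut/Mut, about 9.0 and 5.86 estimated reads, and the 2 wild-type libraries lay close together. The wild-type mean was 7.11 times the Ascl5Mut/Mut mean. On the log2(normalized count + 120) scale, Wdr76 differed by -2.72 (SE 0.55, 95% interval -3.95 to -1.50), and this missed the threshold of 0.05 over all genes tested (limma adjusted p = 0.0566). It passed with a pseudocount of 500 (limma adjusted p = 0.0437) and with a replicate block (limma adjusted p = 0.0393), and with no other setting tried.

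In the Ascl5Mut/WT table Wdr76 had 7040 and 8000 in Ascl5WT/WT against 1638 and 1069 in Ascl5Mut/WT. The groups were far apart, with the wild-type mean 5.56 times the mutant mean. Wdr76 fell by 2.40 on the log2 scale (SE 0.51, 95% interval -3.47 to -1.33, limma adjusted p = 0.0297). This call was lost when any 1 of the 4 libraries was left out (limma adjusted p = 0.116 to 0.841), with the difference between -2.68 and -2.12. It was also lost with a pseudocount of 1 (limma adjusted p = 0.0694) or a minimum mean of 10 (limma adjusted p = 0.164). The 2 comparisons share their Ascl5WT/WT libraries and are not independent.

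**Figure D2:**
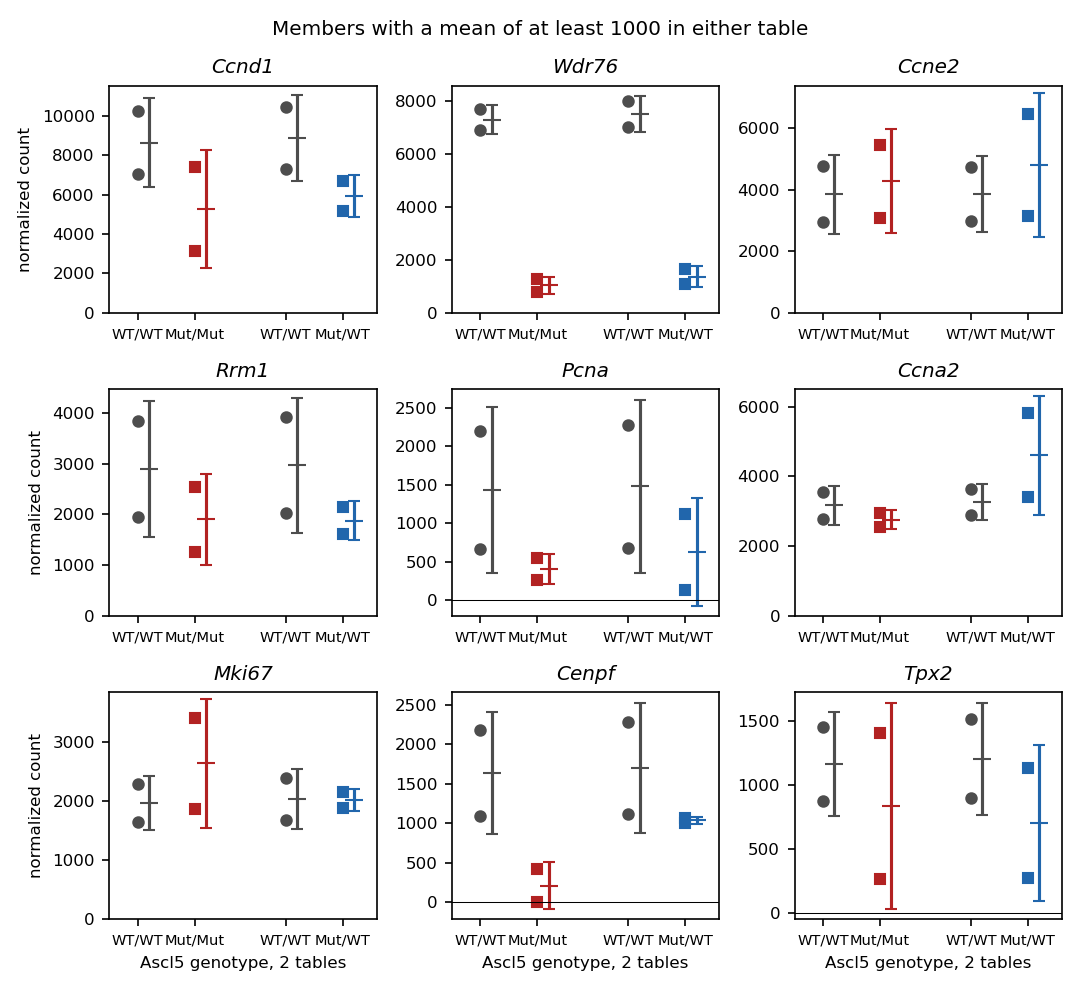
Points are the normalized counts of single libraries (circles Ascl5WT/WT, squares mutant) for the 9 members with a mean of at least 1000 in either table, and bars are the mean and SD of 2 libraries. The left pair of each panel is the Ascl5Mut/Mut table and the right pair the Ascl5Mut/WT table. For Wdr76 the groups are far apart in both, while Ccne2, Rrm1, Ccna2, Mki67 and Tpx2 overlap in both.

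Ccne2 (cyclin E2) overlapped between genotypes in both tables. Its values were 4764 and 2941 in wild type against 5470 and 3084 in Ascl5Mut/Mut (log2 difference 0.13, 95% interval -1.06 to 1.32, limma adjusted p = 0.952). In Ascl5Mut/WT it had 3162 and 6464 against 4735 and 2990 in Ascl5WT/WT (log2 difference 0.26, 95% interval -0.80 to 1.32, limma adjusted p = 0.886). Those intervals exclude a difference as large as that estimated for Wdr76 in the same table. Rrm1, the large subunit of ribonucleotide reductase, had 3838 and 1945 in Ascl5WT/WT, 1259 and 2537 in Ascl5Mut/Mut, and 2148 and 1603 in Ascl5Mut/WT, with overlapping ranges in both tables (limma adjusted p = 0.761 and 0.772). Pcna had 669 and 2192 in Ascl5WT/WT against 547 and 268 in Ascl5Mut/Mut, where its mean was too low to be tested. In Ascl5Mut/WT it had 1120 and 134 against 679 and 2277, so the 2 libraries of each genotype differed more than the genotypes (limma adjusted p = 0.772).

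Apart from Mcm7 in Ascl5WT/WT replicate 2, the helicase subunits were near or under the floor. Mcm6 had 439 and 360 in Ascl5WT/WT, 0 and 135 in Ascl5Mut/Mut, and 252 and 0 in Ascl5Mut/WT, which is at most about 4 estimated reads in any library. Mcm7 reached 1541 in Ascl5WT/WT replicate 2 but 219 in replicate 1, and lay between 277 and 491 in the 4 mutant libraries. Mcm4 had 544 and 121 in Ascl5WT/WT and at most 278 in a mutant library. Mcm2 and Mcm3 had at most 141 and 333 in any library. Only Ascl5WT/WT replicate 1 had a value above 0 for Ccne1 (cyclin E1), at 654 in the Ascl5Mut/Mut table. Tyms, thymidylate synthase, was listed at 0 in Ascl5WT/WT and Ascl5Mut/Mut, and had 254 and 272 in Ascl5Mut/WT, about 2 estimated reads each. Cdk2 ranged from 0 to 838 and Cdt1, a licensing factor, from 0 to 511.

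Among the mitosis genes, Mki67, the antigen used to stain dividing cells, had 1644 and 2284 in Ascl5WT/WT, 3404 and 1865 in Ascl5Mut/Mut, and 2151 and 1882 in Ascl5Mut/WT. Its ranges overlapped in both tables (log2 difference 0.36, 95% interval -1.0 to 1.72, and 0.01, 95% interval -1.23 to 1.24, limma adjusted p = 0.856 and 0.997). Ccna2 (cyclin A2) had 3568 and 2784 in Ascl5WT/WT against 2962 and 2563 in Ascl5Mut/Mut (log2 difference -0.19, limma adjusted p = 0.924). With Ascl5Mut/WT it had 3636 and 2902 against 5813 and 3400 in Ascl5Mut/WT (log2 difference 0.44, limma adjusted p = 0.794). The spindle assembly factor Tpx2, whose mean in the Ascl5Mut/Mut table only just passed the minimum of 1000, had 877 and 1449 in Ascl5WT/WT against 1406 and 267 (limma adjusted p = 0.849). In Ascl5Mut/WT it had 1134 and 269, where it was not tested.

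Some mitosis genes lay lower in both libraries of a mutant genotype without being called or tested. Top2a, which untangles chromosomes, had 1318 and 1220 in Ascl5WT/WT against 975 and 267 in Ascl5Mut/Mut. Beside Ascl5Mut/WT it had 1345 and 1273 against 251 and 134 in Ascl5Mut/WT, where the wild-type libraries were close together. The Ascl5Mut/WT values are about 2 and 1 estimated reads, under the floor. Cenpf, a kinetochore protein, had 1089 and 2182 against 416 and 0 in Ascl5Mut/Mut, and 1116 and 2288 against 1008 and 1071 in Ascl5Mut/WT (limma adjusted p = 0.837). In Ascl5Mut/WT its values thus reached almost to Ascl5WT/WT replicate 1. Ccnb1 (cyclin B1) had 870 and 242 against 139 and 0 in Ascl5Mut/Mut, and overlapped in Ascl5Mut/WT with 883 and 251 against 377 and 0. Cdc25b, the phosphatase that activates Cdk1, had 1005 and 1108 against 508 and 0 in Ascl5Mut/WT, but 984 and 1060 against 0 and 1242 in Ascl5Mut/Mut.

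Other mitosis genes had most of their signal in 1 or 2 libraries. Aurka had 1530 in Ascl5WT/WT replicate 1 and 0 in replicate 2. Cdk1 had 970 in Ascl5WT/WT replicate 2 and 942 in Ascl5Mut/Mut replicate 2, and 0 in the first replicate of each genotype. Plk1 was above 0 only in Ascl5WT/WT replicate 2, at 601, and Aurkb only in Ascl5Mut/Mut replicate 2, at 815. Such values are about 5 to 14 estimated reads in 1 library and 0 in its replicate, so replicates of 1 genotype differed by the whole value. Kif11 was above 0 in all libraries, from 267 to 1374, and Bub1b, a spindle checkpoint kinase, from 109 to 496. Cenpe, a kinetochore motor, was higher in Ascl5Mut/Mut (834 and 534 against at most 439) and not in Ascl5Mut/WT (0 and 266 against 446 and 127). Bub1 lay between 0 and 966 and Ccnb2 between 0 and 885, with overlap in both tables.

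By limma over all genes with a mean of at least 1000, 0 of 7 tested members were called in Ascl5Mut/Mut, where 0.856% of 2336 genes were called, 0.3% lower and 0.557% higher. With an unadjusted p under 0.05, 1 of the 7 (Wdr76) passed, against 11.2% of all tested genes, a share near that background. In Ascl5Mut/WT 1 of 8 tested members was called, Wdr76, and it was lower. There 0.549% of 2370 genes were called, 0.211% lower and 0.338% higher. Among the 7 members tested in Ascl5Mut/Mut, 1 had both mutant libraries below both wild-type libraries, against 21.8% of all tested genes, and 0 had both above, against 22.0%. Among the 8 tested in Ascl5Mut/WT, 3 lay below (Ccnd1, Wdr76 and Cenpf), against 19.5%, and 0 above, against 21.1%. The median log2 difference of the tested members was -0.58 in Ascl5Mut/Mut, against -0.02 over all tested genes. It was -0.57 in Ascl5Mut/WT, against 0.04 over all tested genes. These medians cover only members high enough to be tested, and no test was made of them.

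**Figure D3:**
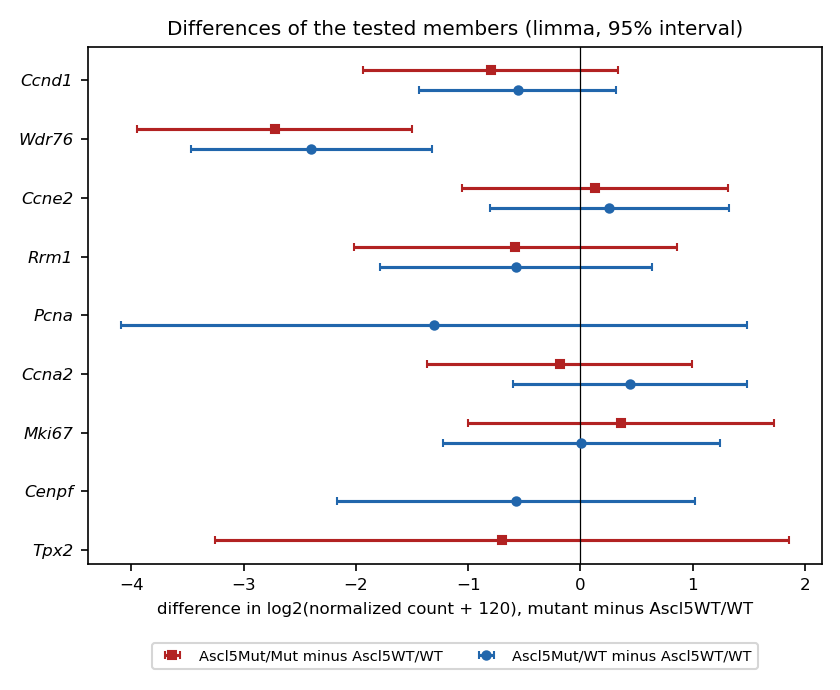
Points are the differences in log2(normalized count + 120), mutant minus Ascl5WT/WT, with limma's 95% intervals, for the members tested in each table (red squares Ascl5Mut/Mut, blue circles Ascl5Mut/WT). Wdr76 lies at -2.72 and -2.40, and the intervals of the other 8 genes include 0.

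Across all members above 0 in at least 1 library of the table, 7 of 35 had both Ascl5Mut/Mut libraries below both Ascl5WT/WT libraries, against 13.5% of all such genes. These were Mcm6, Pcna, Wdr76, Top2a, Ccnb1, Cenpf and Ube2c. In the opposite direction were 2 (5.71%, against 13.3%), Ccnd2 and Cenpe. In Ascl5Mut/WT 8 of 33 lay below (24.2%, against 11.8%), namely Ccnd1, Mcm6, Wdr76, Top2a, Cdc20, Cdc25b, Cenpf and Ube2c. Above were 2 (6.06%, against 14.5%), Ccnd2 and Tyms. Cdc20 and Ube2c had at most 2 estimated reads in any library. The shares below are higher than the background and the shares above lower, on counts of 2 to 8 genes, and no test was made of the difference.

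The summed normalized count of the 40 genes was 42516 and 40804 in Ascl5WT/WT and 30266 and 22136 in Ascl5Mut/Mut, so the mutant mean was 0.629 of the wild-type mean. That sum corresponds to about 391 and 340 estimated reads against 217 and 163. As a share of all normalized counts it was 0.334% and 0.325% in Ascl5WT/WT against 0.235% and 0.180% in Ascl5Mut/Mut. Beside Ascl5Mut/WT the sum was 43203 and 42456 against 30753 and 25565 in Ascl5Mut/WT, a ratio of 0.657. Both mutant genotypes lay below both wild-type libraries. The smallest two-sided p that an exact permutation test can give with n = 2 per group is 0.33, which it gave here, so this test cannot call a difference in a sum of these libraries.

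The S phase sum was 18484 and 17632 in Ascl5WT/WT against 10210 and 7234 in Ascl5Mut/Mut, a ratio of 0.483. In the other table it was 18692 and 18289 against 9954 and 10092 in Ascl5Mut/WT, a ratio of 0.542. The groups did not overlap in either table (exact permutation p = 0.33 in each, the smallest possible). Wdr76 alone made up 37.4% and 43.6% of the S phase sum in Ascl5WT/WT, and at most 12.3% in Ascl5Mut/Mut. Without Wdr76 the S phase sum was 11563 and 9943 against 8953 and 6437 in Ascl5Mut/Mut, a ratio of 0.716. It was 11652 and 10288 against 8316 and 9023 in Ascl5Mut/WT, a ratio of 0.790. The groups still did not overlap, with a gap much smaller than with Wdr76. In each mutant library Ccne2, not Wdr76, held the highest share of the S phase sum. Without the S phase members that overlap a gene on the opposite strand, Ccne2 among them, the ratio was 0.284 in Ascl5Mut/Mut and 0.352 in Ascl5Mut/WT. Wdr76 has no such overlap and stayed in that smaller sum, so these ratios rest on it more.

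**Figure D4:**
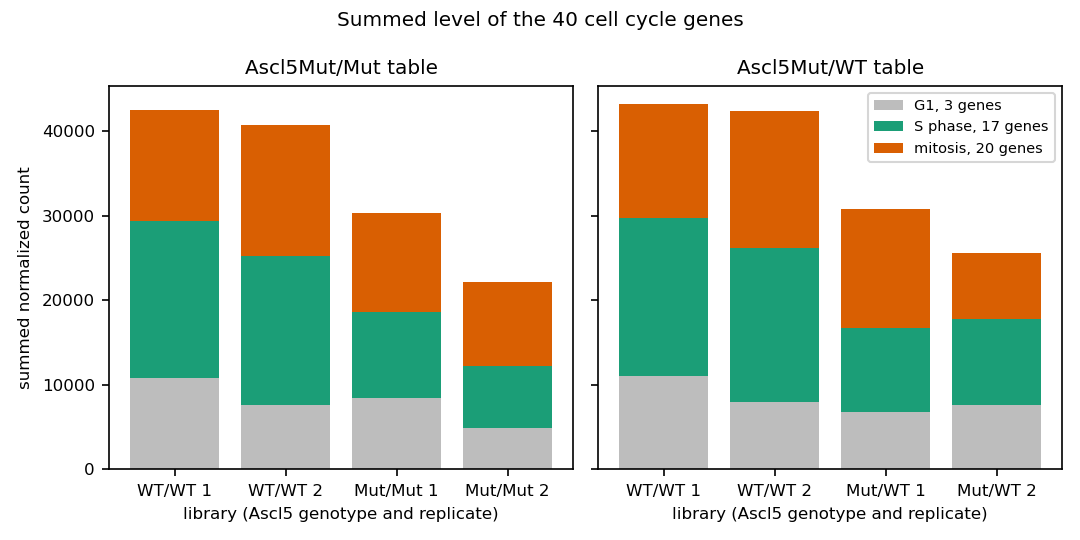
Bars are the summed normalized counts of the 40 genes in each library, stacked by class (grey 3 G1 genes, green 17 S phase genes, orange 20 mitosis genes), starting at 0. The Ascl5WT/WT bars reach 40804 to 43203, and the 4 mutant bars lie between 22136 and 30753. The green part, which holds Wdr76, has the widest difference.

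The mitosis sum was 13197 and 15589 in Ascl5WT/WT against 11659 and 9980 in Ascl5Mut/Mut, a ratio of 0.752 with no overlap (exact permutation p = 0.33). In the other table it was 13466 and 16245 against 14006 and 7830 in Ascl5Mut/WT, a ratio of 0.735. There Ascl5Mut/WT replicate 1 lay within the wild-type range (exact permutation p = 0.67). Without Ascl5Mut/WT replicate 2 the log2 ratio was -0.08, so in the whole sum that library carried most of the difference. Ccna2 alone made up 41.5% of the sum in Ascl5Mut/WT replicate 1 and 43.4% in replicate 2, against 27.0% and 17.9% in Ascl5WT/WT. It had 5813 in Ascl5Mut/WT replicate 1 against 3636 and 2902 in Ascl5WT/WT, so the level of that library depended on Ccna2. With Ccna2 left out of the mitosis sum, both libraries of each mutant genotype lay below both wild-type libraries. The G1 sum overlapped in Ascl5Mut/Mut, with 10834 and 7583 against 8397 and 4922. In Ascl5Mut/WT it did not overlap, with 11045 and 7922 against 6793 and 7644, a ratio of 0.761 (exact permutation p = 0.33).

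Lists of further cell cycle genes gave no limma call in either table. Of 56 other replication genes 4 were tested in each table. The 2 highest in wild type were Orc3, a subunit of the origin recognition complex, and Nasp, a histone chaperone. Orc3 had 39309 and 26418 in Ascl5WT/WT against 25556 and 37360 in Ascl5Mut/Mut (limma adjusted p = 0.962). Nasp had 5695 and 9675 against 2948 and 4316 in Ascl5Mut/Mut, and 5651 and 9819 against 3523 and 3783 in Ascl5Mut/WT (limma adjusted p = 0.479 and 0.518). The Nasp values of both mutant genotypes lay below both wild-type libraries. The sum of the list was 58667 and 48961 against 40693 and 54434 in Ascl5Mut/Mut, and 59602 and 50749 against 56450 and 58123 in Ascl5Mut/WT, with overlap in both. Orc3 alone held much of this sum. Without Orc3, an alternative chosen after seeing the data, the sum was 19358 and 22543 against 15137 and 17074 in Ascl5Mut/Mut, and 19542 and 23211 against 17026 and 15582 in Ascl5Mut/WT. The groups then did not overlap in either table, with ratios of 0.769 and 0.763.

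Of 57 other mitosis genes 9 and 7 were tested. Their sum was 42279 and 32626 in Ascl5WT/WT against 28482 and 19893 in Ascl5Mut/Mut, and 42944 and 33850 against 25542 and 27919 in Ascl5Mut/WT. The sum had no overlap in either table, with ratios of 0.646 and 0.696 (exact permutation p = 0.33 in each). Kif20a, a kinesin of cell division, had 10089 and 10593 against 5507 and 3792 in Ascl5Mut/Mut (log2 difference -1.16, limma adjusted p = 0.354) and 10196 and 10950 against 6624 and 8737 in Ascl5Mut/WT (-0.47, limma adjusted p = 0.735). Its exons overlap Cdc23 on the opposite strand by 1271 bases. Ncapg, a condensin subunit that overlaps Lcorl by 944 bases, overlapped between genotypes in both tables (limma adjusted p = 0.958 and 0.997).

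Of 30 brakes and E2F or Rb regulators 4 and 5 were tested. Their sum was 11056 and 13177 in Ascl5WT/WT against 13796 and 12313 in Ascl5Mut/Mut, and 11337 and 13817 against 14926 and 13483 in Ascl5Mut/WT, and so did not lie below wild type. E2f5, a repressor E2F, had 1954 and 3534 against 1801 and 3938 in Ascl5Mut/Mut (limma adjusted p = 0.990). In Ascl5Mut/WT its values of 1628 and 1873 lay below the wild-type values of 2006 and 3710, without a call (log2 difference -0.61, limma adjusted p = 0.764). Mybl2, an activator of mitosis genes, had 871 and 2333 against 0 and 420 in Ascl5Mut/Mut, and 888 and 2434 against 631 and 561 in Ascl5Mut/WT (limma adjusted p = 0.744). Of 12 other G1 and S cyclins and CDKs 2 and 3 were tested. Their sum was 13394 and 14502 against 8971 and 8254 in Ascl5Mut/Mut, a ratio of 0.617 with no overlap (exact permutation p = 0.33). It overlapped in Ascl5Mut/WT, with 13370 and 14824 against 14559 and 15975, a ratio of 1.08. Ccnh, a cyclin of the CDK-activating kinase, had 10650 and 12311 against 6472 and 5008 in Ascl5Mut/Mut (log2 difference -0.99, limma adjusted p = 0.387) and 10601 and 12534 against 9888 and 10563 in Ascl5Mut/WT (limma adjusted p = 0.895). Mnat1, a partner of Ccnh, overlapped between genotypes in both tables. At an unadjusted p under 0.05, Kif20a and Ccnh passed in Ascl5Mut/Mut, where 11.2% of all tested genes did, and Nasp in Ascl5Mut/WT, where 8.73% did. These few passes do not set the lists apart from other genes.

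Markers of other cells differed with genotype as well, and limma called Krt13, Krt4, Rptn and Ctsk higher in Ascl5Mut/Mut and Krt13, Krt4 and Dspp higher in Ascl5Mut/WT. Values over the 10 keratinized oral epithelium markers summed to 219 and 540 in Ascl5WT/WT, where 7 of them were at 0, against 19515 and 129266 in Ascl5Mut/Mut. Beside Ascl5Mut/WT the sums were 222 and 562 against 14446 and 49754 in Ascl5Mut/WT. The 10 osteoclast and bone markers summed to 2490 and 7230 against 43349 and 32732 in Ascl5Mut/Mut, and 2591 and 7550 against 27898 and 11782 in Ascl5Mut/WT. Phex and Dmp1 of that list were at 0 in wild type. The 10 dental mesenchyme markers summed to 34044 and 56545 against 134262 and 78053 in Ascl5Mut/Mut, and 34503 and 58547 against 133386 and 61216 in Ascl5Mut/WT. The 12 dental epithelium markers summed to 45451 and 38146 against 9750 and 37350 in Ascl5Mut/Mut, and overlapped in Ascl5Mut/WT. Of the 6 tested in Ascl5Mut/Mut, 5 had a log2 difference below 0, and Krt15 went the other way (4.32, limma adjusted p = 0.538). The 10 endothelium markers, 4 of them at 0 in all libraries, summed to 590 and 839 against 3936 and 2111 in Ascl5Mut/Mut, and 574 and 850 against 1296 and 1544 in Ascl5Mut/WT. The skeletal muscle, blood and immune, and Schwann cell lists overlapped in both tables. The part of these cell types in the sums of the cell cycle genes and in Wdr76 was not tested.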

How the data were processed

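Values are the authors' normalized gene counts, read as a linear signal, and each of the 2 deposited tables (24972 genes) was normalized on its own. The mm10 genome and DESeq2 are named in the submitters' processing notes, and libraries were made with a stranded kit, per the labels' protocols. No source used here gives the aligner, annotation or counting strand. In each library 85.0% to 93.7% of low values fell within 0.1 of whole steps, too few to recover reads, so no count model was run.

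Within each table limma 3.58.1 (R 4.3.3) compared 2 mutant with 2 Ascl5WT/WT libraries on log2(normalized count + 120) with an intensity trend, two-sided, for genes with a mean of at least 1000. This understates changes of low genes. Benjamini-Hochberg adjustment ran over all genes tested, with a call under 0.05, and the fit was tested on simulated data. Sums were compared by exact permutation. Named are members with a mean of at least 1000 or a call, plus the 2 highest of each further list; other members and the promoters shown were picked after their values were seen. Members, lists and settings were chosen with earlier results of these data known. The pseudocount and minimum mean follow an earlier analysis that had seen the number of calls under several settings. Alternatives changed the pseudocount, filter, scaling, block, libraries and members.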

Additional observations from a re-analysis of the deposited data

How the results depend on the processing

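Depth limits low members: 10 of 40 never passed about 3 estimated reads, and differences there were not detectable. Without members that overlap a gene on the opposite strand, the log2 ratio of the S phase sum was -1.82 in Ascl5Mut/Mut and -1.50 in Ascl5Mut/WT, against -1.05 and -0.88 with them, and that of all members was -1.03 and -1.11, against -0.67 and -0.60. Wdr76 has no such overlap and stayed in these sums. Without Wdr76 alone the S phase ratio was -0.48 and -0.34, and that of all members in Ascl5Mut/WT was -0.40. The removal of Wdr76 from the sum of all members was chosen after seeing the data. No member sum changed sign under the alternatives run. The log2 ratio of the other replication genes in Ascl5Mut/WT went from 0.05 to -0.39 without Orc3 (chosen after seeing the data). The number of all genes called in Ascl5Mut/Mut was 20, and 4 with a pseudocount of 1, 1 with a minimum mean of 10, 10 with a minimum mean of 500 and 0 with both a pseudocount of 1 and a minimum mean of 10 (limma, 1280 at an unadjusted p under 0.05). It was 0 to 33 with 1 library left out, with 0 calls without either Ascl5Mut/Mut library (262 and 224 at an unadjusted p under 0.05), 7 without Ascl5WT/WT replicate 1 and 33 without replicate 2. In Ascl5Mut/WT the number was 13, and 8 with a pseudocount of 1 and 0 with both changes (limma, 1055 at an unadjusted p under 0.05). It was 0 to 34 with 1 library left out, with 0 without either Ascl5Mut/WT library (113 and 127 at an unadjusted p under 0.05), 20 without Ascl5WT/WT replicate 1 and 34 without replicate 2. Members called in Ascl5Mut/Mut were 0, and 1 (Wdr76) with a pseudocount of 500. In Ascl5Mut/WT they were 1, and 0 with a pseudocount of 1, a minimum mean of 10, both changes, or any 1 library left out. With 1 library left out, the lone library of that genotype is assumed to vary like the other pair. The causes were not tested.

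Labels give the same replicate numbers to each genotype. With the replicate number as a block, 36 genes were called in Ascl5Mut/Mut and 37 in Ascl5Mut/WT, and 1 member in each (Wdr76). The deviations of same-numbered libraries had a correlation of -0.01 and 0.02 across genes. This rests on 1 difference per genotype, with the same Ascl5WT/WT libraries in both tables. It cannot show whether same-numbered libraries share more than a number.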
